A study of Homo sapiens with 20 samples.

Results

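The genes described here are 32 neuronal and neuroendocrine genes, chosen by symbol from general knowledge of these cell types and with earlier results of these data known. The list of 32 includes REST, the repressor that silences many of the others outside the nervous system. In the annotation used here 31 of the 32 had at least 1 probe set that names a single gene, among 19775 such genes on the array. NEUROD1 had none and is only named. In all, 72 probe sets matched the 31 genes. Each gene was represented by its probe set with the highest mean over the 20 arrays, and it was called dim in a group when its mean there was under 6 on the log2 intensity scale.

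RNA of 2 human prostate cancer lines was hybridised to Affymetrix 3′ expression arrays: LNCaP, an androgen-sensitive line, and C42B, a castration-resistant line derived from LNCaP. C42B cells received siLSD1, an siRNA against LSD1, or the control labelled siNTC for 6 h and were then grown for 96 h in RPMI with 10% CSS, charcoal-stripped serum depleted of steroids (3 arrays each). C42B cells kept for 72 h in RPMI with 10% CSS were given 100 nM DHT, the androgen dihydrotestosterone, or the same volume of ethanol for 16 h (4 arrays each). LNCaP cells received siLSD1 or siNTC at 50 nM with Dharmafect 3 and were grown for 96 h in RPMI with 10% FBS, whole fetal bovine serum (3 arrays each). All cells were plated in RPMI with 10% FBS, and neither the siRNA sequences nor their number is given. Each LNCaP replicate pooled 2 wells, 6 wells gave the 3 replicates of the C42B siRNA experiment, and the androgen replicates came from 4 wells. Nothing says that wells were independent cultures, so the p-values measure the spread between these arrays. The arrays of the 3 experiments differ in their intensity distributions, so levels are comparable within an experiment only. Medium, line, transfection, pooling of wells and normalization cannot be told apart where levels of C42B and LNCaP stand side by side.

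The LSD1 gene KDM1A, which checks the siRNA labels, averaged 7.88 in C42B siLSD1 cells and 10.29 in siNTC cells on the log2 scale, and 7.30 in LNCaP siLSD1 cells against 10.08 in siNTC cells. Of 12 luminal prostate markers 10 had a single-gene probe set, and all 10 were bright in every group. Their summed log2 intensity per array ran from 119.5 to 119.8 in C42B siLSD1 and from 116.0 to 116.2 in siNTC cells, from 121.6 to 121.7 with DHT and from 105.0 to 106.2 with vehicle, and from 118.3 to 118.7 in LNCaP siLSD1 and from 115.1 to 115.9 in siNTC cells. Of 17 markers of basal cells, leukocytes, endothelium, stroma and glia 15 were measured, and 5 to 8 of them were bright in a group, with the endothelial PECAM1 and VWF, the stromal COL1A1 and the glial MBP bright in all 6 groups and the T cell marker CD3E bright in the DHT and vehicle groups. The summed log2 intensity of those 15 per array ran from 88.4 to 90.8 in C42B siLSD1 and from 89.3 to 90.6 in siNTC cells, from 91.1 to 92.0 with DHT and from 91.2 to 93.4 with vehicle, and from 87.8 to 89.0 in LNCaP siLSD1 and from 86.9 to 88.6 in siNTC cells. None of the 15 passed in limma with siLSD1 in C42B (1 higher and 2 lower at an unadjusted p under 0.05). With DHT 3 passed (KRT14 higher, COL3A1 and MBP lower), and 3 with siLSD1 in LNCaP (KRT14 and MBP higher, COL3A1 lower). These are 0%, 20% and 20% of the 15, against 18%, 32.7% and 25.9% of all genes. The basal keratin KRT14 was dim in every group, so its change has no measured level behind it, and COL3A1 was dim with DHT. Of the 10 luminal markers 5 passed higher with siLSD1 in each line, and 6 higher and 2 lower with DHT. These are 50% with siLSD1 in C42B, 80% with DHT and 50% with siLSD1 in LNCaP. The leukocyte marker PTPRC and the endothelial CDH5 were dim in every group. The 3′ minus 5′ difference of the actin control probe sets, a sign of RNA quality, lay between 1.17 and 1.31 on C42B siLSD1 arrays and between 1.13 and 1.19 on siNTC arrays, 0.91 to 1.16 with DHT and 0.90 to 1.12 with vehicle, and 0.93 to 1.09 in LNCaP siLSD1 and 0.82 to 0.98 in siNTC arrays. Their part in the results was not tested. In bulk RNA, fewer cells of a kind and less RNA per cell cannot be told apart.

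REST, the RE1-silencing transcription factor, is a zinc finger protein that binds a DNA element called RE1 near neuronal genes and keeps them silent in epithelial and other non-neuronal cells. It recruits the SIN3A corepressor and the CoREST complex, in which RCOR1 holds LSD1 and the histone deacetylases HDAC1 and HDAC2 together. Prostate epithelium contains scattered neuroendocrine cells, and some prostate cancers that resist androgen withdrawal express granins, synaptophysin and other genes of this kind, often with low REST activity.

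The RE1 element is shown here as a description of the sequence that REST reads. The promoter windows are those of RefSeq (GRCh38.p14), from 250 bases before to 50 bases after a transcription start, and 24 of the 32 genes had one, with 37 windows in all. MAPT, CHGB, NCAM1, SNAP25, FOXA2, STMN2, SCG2 and INSM1 had none. The RE1 core was searched on both strands as its left part CAGCACC followed, after 2 bases of any kind, by its right part GGACAG. With at most 1 mismatch they occurred in the windows of 0.278% of 27305 genes and of 1 of the 24 listed genes, VGF, where the match runs from base -6 to base 9 around the start used by RefSeq. With at most 2 mismatches they occurred in 2.49% of all genes and in VGF and TUBB3. The matches of both are set beside those of the textbook REST targets SYN1 and GRIA2, which hold the core without a mismatch, as do 0.0586% of all genes. Each line is written in the direction of the core, and capitals mark the bases equal to a fixed letter of it.
VGF, chr7:101165559-101165579, strand opposite to the gene: ttCAGCACgctGGACAGcgcc
TUBB3, chr16:89921811-89921831, strand of the gene: agCAGCcCCctGGcCAGcccc
SYN1, chrX:47620070-47620090, strand of the gene: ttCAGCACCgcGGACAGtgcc
GRIA2, chr4:157220388-157220408, strand opposite to the gene: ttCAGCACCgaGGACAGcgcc

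Among the 24 genes with a window, VGF had both the closest match and a large response to DHT. Its promoter is therefore printed from 250 bases before to 11 bases after the start (minus strand of chr7:101165559-101165819). Capitals mark the cyclic AMP response element TGACGTCA, which binds CREB, and at the end the window around the RE1 match, read on the strand of the gene.
VGF promoter: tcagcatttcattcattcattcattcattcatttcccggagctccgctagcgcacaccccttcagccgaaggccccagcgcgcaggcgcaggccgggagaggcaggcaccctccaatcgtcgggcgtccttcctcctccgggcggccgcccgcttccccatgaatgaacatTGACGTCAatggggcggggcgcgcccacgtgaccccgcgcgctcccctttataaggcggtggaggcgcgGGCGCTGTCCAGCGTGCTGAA
TGACGTCA occurred in the windows of 2.25% of all genes and of 2 of the 24, VGF and CHGA. The androgen response element, its parts AGAACA and TGTTCT set 3 bases apart, with at most 2 mismatches on either strand, occurred in 1.74% of all genes and in none of the 24. A match describes letters only, and sequence outside the windows was not searched, so a gene without a match can still hold the element elsewhere.

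Of the 31 measured genes, 13 were bright in all 6 groups, 7 in some groups and 11 in none. The 11 dim genes include granule and vesicle markers. These were CHGA and CHGB, the chromogranins of dense-core granules, SCG2 and SCG3, granins of the same granules, SYT1, the calcium sensor of vesicle release, and SYT11, a related synaptotagmin. Other genes of this kind, SYP, SNAP25, SYT4 and VGF, were bright in all 6 groups. The other dim genes were STMN2 and DCX, microtubule proteins of growing neurites, ELAVL4, a neuronal RNA-binding protein, and the transcription factors FOXA2 and INSM1. Over all genes 25.6% were dim in every group, against 35.5% of the 31. Synaptophysin (SYP) and the adhesion molecules NCAM1 and L1CAM were bright in every group, with group means of 6.23 to 6.59, 6.37 to 7.07 and 6.26 to 6.63.

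**Figure D1:**
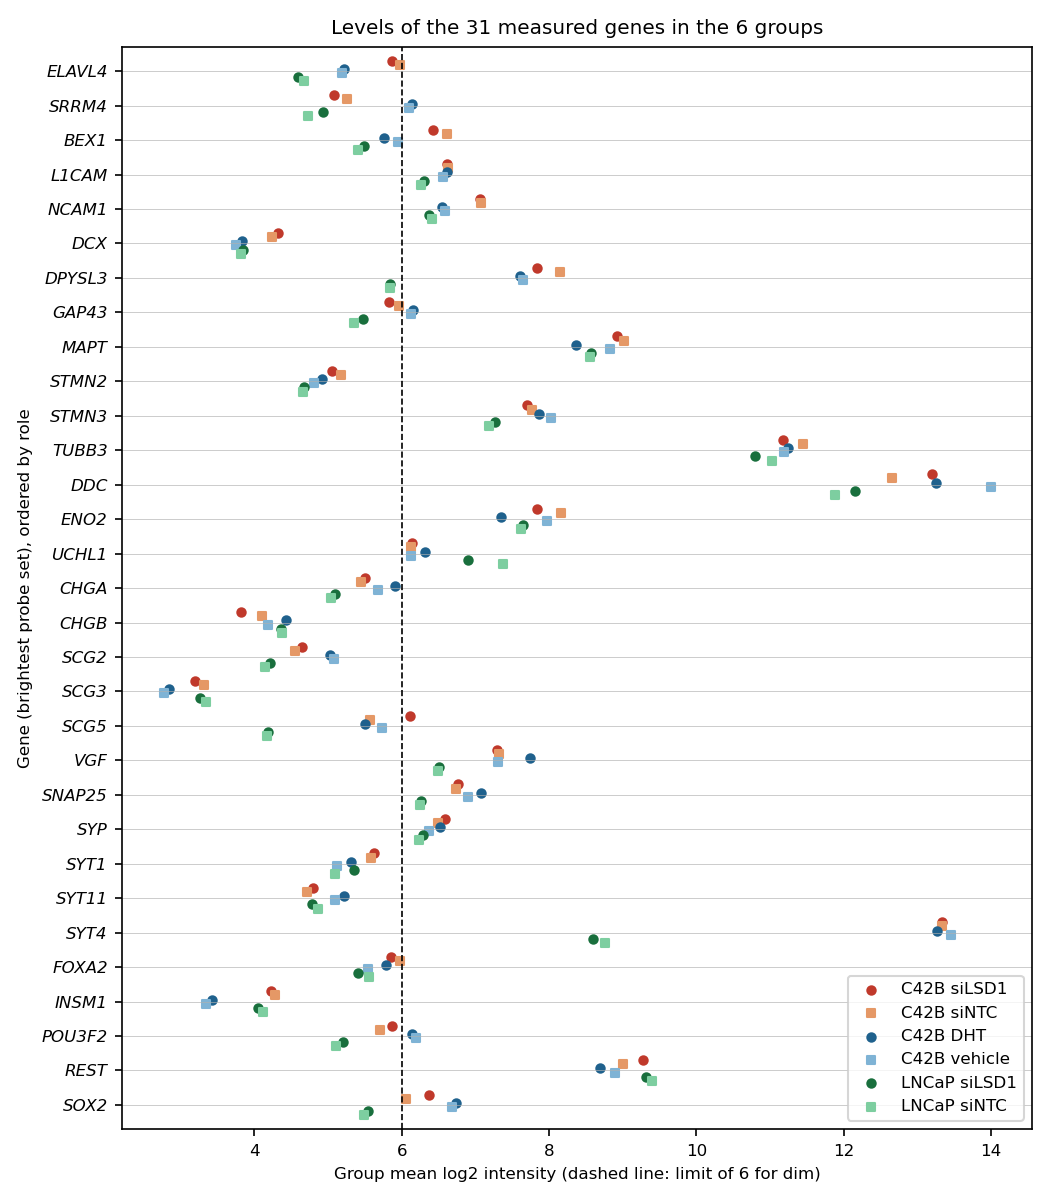
Group mean log2 intensity (x axis) of the brightest probe set of each of the 31 genes (y axis, ordered by role) in the 6 groups, with siLSD1 and DHT groups as circles and siNTC and vehicle groups as squares. The dashed line is the dim limit of 6, levels of different genes have different probes and cannot be ranked, and SYT4 stands out by the distance between its C42B groups (13.26 to 13.45) and its LNCaP groups (8.60 and 8.75).

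REST itself was bright in every group. Its log2 intensity was 9.14, 9.34 and 9.34 in C42B siLSD1 cells, against 9.03, 9.05 and 8.93 in siNTC cells. With DHT it was 8.68, 8.66, 8.57 and 8.85, against 8.86, 8.94, 8.84 and 8.92 with vehicle. In LNCaP it was 8.91, 9.47 and 9.55 with siLSD1 and 8.88, 9.62 and 9.69 with siNTC. The C42B siRNA groups did not overlap, the androgen groups overlapped by 1 DHT array, and in LNCaP replicate 1 lay low in both groups, so that the groups overlapped, while the other siLSD1 arrays lay below the other siNTC arrays. REST was higher with siLSD1 in C42B by 0.27 ± 0.07 (log2 fold change ± SE, 20.2%, limma adjusted p = 0.041) and lower with DHT (-0.20 ± 0.06, limma adjusted p = 0.030). In LNCaP the fold change was -0.08 ± 0.24 (limma adjusted p = 0.85), and the difference between the lines, 0.35 ± 0.28, did not pass (limma adjusted p = 0.48).

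Both REST calls depended on the probe set and on single arrays. The 3 REST probe sets gave log2 fold changes of 0.27, 0.16 and -0.15 with siLSD1 in C42B and of -0.20, 0.13 and -0.01 with DHT, and the mean over all 3 gave 0.09 (limma adjusted p = 0.24) and -0.03 (limma adjusted p = 0.71). The siLSD1 call ended without siLSD1 replicate 2 or 3 or any 1 siNTC replicate (0.23 to 0.29, limma adjusted p 0.076 to 0.14) and with a replicate block (limma adjusted p = 0.068). It also ended with the adjustment over all probe sets (limma adjusted p = 0.068). The DHT call ended without DHT replicate 1, 2 or 3 or vehicle replicate 2 or 4 (-0.20 to -0.16, limma adjusted p 0.063 to 0.078) with quantile normalization (-0.16, limma adjusted p = 0.065) and with each array centred on its median (-0.13, limma adjusted p = 0.13).

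With siLSD1 in C42B, 7 of the 31 genes passed (22.6%), against 18% of all genes. DDC, SCG5 and REST were higher (3 of 31, 8.66% of all genes) and ENO2, DPYSL3, TUBB3 and CHGB lower (4 of 31, 9.39% of all genes). The median log2 fold change of the 31 was -0.02, the same as over all genes to 2 decimals. Of the 31 genes 14 had a positive fold change, so the list had no common direction.

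DDC, aromatic L-amino acid decarboxylase, makes dopamine and serotonin and is a neuroendocrine marker. Its log2 intensity was 13.21, 13.21 and 13.18 in C42B siLSD1 cells and 12.65, 12.64 and 12.66 in siNTC cells, groups that lay far apart against their spread. DDC rose by 0.55 ± 0.05 (46.3%, limma adjusted p = 0.00051). A dimmer DDC probe set, at 6.07 in siLSD1 and 5.98 in siNTC cells, gave 0.09 ± 0.09 (limma adjusted p = 0.60 over all probe sets).

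SCG5, which encodes 7B2, the chaperone of prohormone convertase PCSK2, had 6.22, 6.07 and 6.05 in C42B siLSD1 cells and 5.55, 5.73 and 5.45 in siNTC cells. All 3 siLSD1 arrays lay above 6 and all 3 siNTC arrays below it. SCG5 rose by 0.54 ± 0.08 (limma adjusted p = 0.0053), or at least 0.11 when the dim control is counted from 6.

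ENO2, the neuronal enolase of glycolysis, had 7.85, 7.85 and 7.82 in C42B siLSD1 cells against 8.24, 8.18 and 8.06 in siNTC cells. It fell by 0.32 ± 0.06 (limma adjusted p = 0.011), without overlap of the groups. TUBB3, the neuronal beta-tubulin, had 11.23, 11.14 and 11.16 with siLSD1 and 11.42, 11.51 and 11.42 with siNTC and was lower by a log2 fold change of -0.27 ± 0.05 (limma adjusted p = 0.013). Its 2 probe sets can match other tubulin transcripts by design, and both passed lower among all probe sets. DPYSL3, a growth cone protein also called CRMP4, had 7.95, 7.84 and 7.72 with siLSD1 and 8.23, 8.10 and 8.12 with siNTC (-0.31 ± 0.07, limma adjusted p = 0.024). CHGB passed with dim values in both groups (3.82 with siLSD1 and 4.10 with siNTC), so its -0.28 ± 0.08 (limma adjusted p = 0.044) has no measured level behind it.

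The TUBB3 call ended without siLSD1 replicate 2 or 3 (limma adjusted p 0.055 and 0.056). The DPYSL3 call ended without siLSD1 replicate 2 or 3 or any 1 siNTC replicate (-0.34 to -0.25, limma adjusted p 0.052 to 0.080), and its other probe sets gave -0.09 and 0.01. Without siLSD1 replicate 2 or 3, 1 of the 31 genes passed lower, and without siNTC replicate 1 or 3, 2 did. The share of all genes without these arrays is not given here, so nothing particular to the 31 is read from these counts.

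**Figure D2:**
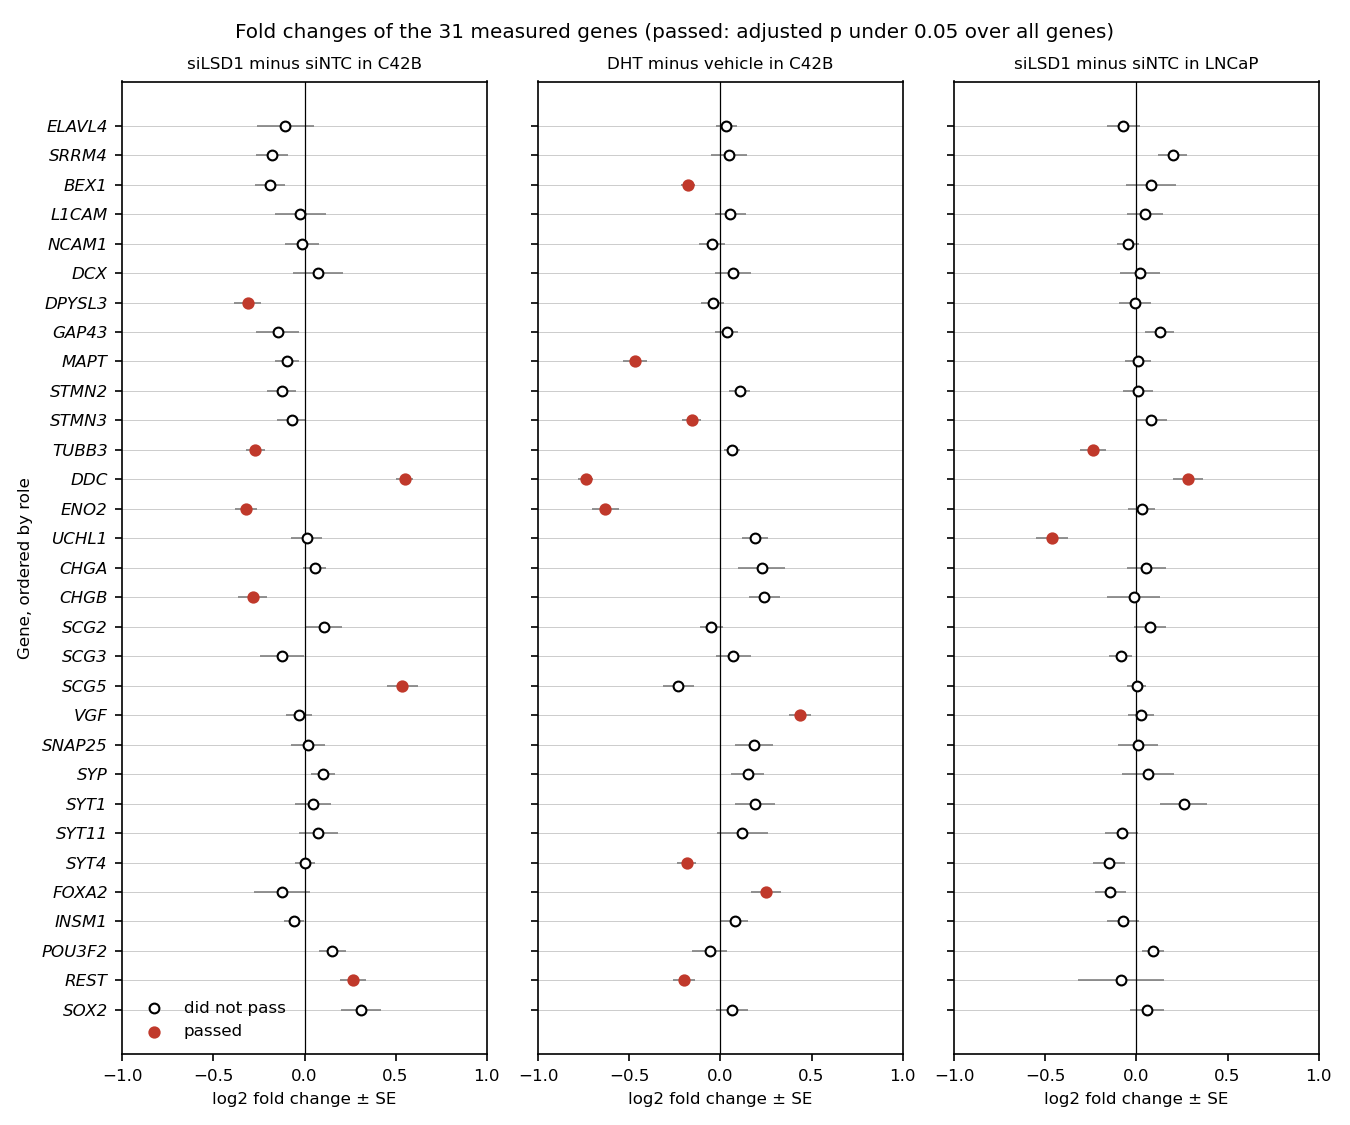
Log2 fold change ± SE (x axis) of each of the 31 genes (y axis, ordered by role) for siLSD1 minus siNTC in C42B, DHT minus vehicle in C42B and siLSD1 minus siNTC in LNCaP. Filled points passed (adjusted p under 0.05, all 19775 genes): 7, 9 and 3 of the 31, with the largest values for DDC (0.55 and -0.74) in C42B and UCHL1 (-0.47) in LNCaP.

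With DHT, 9 of the 31 genes passed (29%), against 32.7% of all genes. VGF and FOXA2 were higher (2 of 31, 13.4% of all genes), and DDC, ENO2, MAPT, REST, SYT4, BEX1 and STMN3 lower (7 of 31, 19.4% of all genes). The median log2 fold change of the 31 was 0.05, and that of all genes 0.01. With each array centred on its median, 5 of the 31 passed higher and 4 lower. Centring moves all genes of an array by the same amount. Their share under it is not given here, so nothing particular to the 31 is read from this split.

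DDC had 13.19, 13.29, 13.25 and 13.29 with DHT and 13.97, 14.03, 14.02 and 13.95 with vehicle. DDC fell by 0.74 ± 0.04 (-40.1%, limma adjusted p = 1.0e-06), the reverse of its direction with siLSD1. The dimmer DDC probe set, at 6.39 with DHT and 6.43 with vehicle, gave -0.04 ± 0.16 (limma adjusted p = 0.89 over all probe sets). The level of DDC in vehicle-treated C42B cells, 13.99, and in C42B siNTC cells, 12.65, comes from experiments whose intensity distributions differ.

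ENO2 had 7.23, 7.47, 7.40 and 7.28 with DHT and 7.86, 7.89, 8.15 and 7.99 with vehicle. It fell by 0.63 ± 0.08 (-35.4%, limma adjusted p = 0.00017). ENO2 thus passed lower both with siLSD1 and with DHT in C42B, in comparisons that share no arrays.

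MAPT encodes tau, the microtubule protein of axons. It had 8.18, 8.47, 8.47 and 8.34 with DHT and 8.79, 8.85, 8.82 and 8.86 with vehicle, groups that did not overlap. MAPT fell by 0.47 ± 0.07 (-27.7%, limma adjusted p = 0.00043), all 6 of its probe sets had negative fold changes (-0.50 to -0.01), and 4 of them passed among all probe sets. With siLSD1 in C42B, MAPT had 8.89, 8.93 and 8.93 against 9.09, 9.06 and 8.89 with siNTC and did not pass (-0.10 ± 0.07, limma adjusted p = 0.36). There 5 of the 6 MAPT probe sets had negative fold changes and 1 passed lower among all probe sets (-0.28, limma adjusted p = 0.044). That same probe set passed lower with siLSD1 in LNCaP (-0.24, limma adjusted p = 0.047), where 3 of the 6 were negative.

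VGF, a secreted neuropeptide precursor induced by growth factors, moved the other way. It had 7.61, 7.75, 7.87 and 7.73 with DHT and 7.29, 7.36, 7.32 and 7.24 with vehicle. VGF rose by 0.44 ± 0.06 (35.3%, limma adjusted p = 0.00033), with every DHT array above every vehicle array. With siLSD1 its log2 fold change was -0.03 ± 0.07 in C42B and 0.02 ± 0.07 in LNCaP, neither of which passed (limma adjusted p = 0.82 and 0.85). The VGF probe set can match other transcripts by design, and no other single-gene probe set names VGF.

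SYT4, a synaptotagmin of secretory vesicles, had 13.27, 13.22, 13.26 and 13.31 with DHT and 13.53, 13.33, 13.50 and 13.43 with vehicle. The groups did not overlap, and SYT4 was lower by a small margin (-0.19 ± 0.05, limma adjusted p = 0.021). The call ended without DHT replicate 2 or vehicle replicate 1 or 3 (-0.17 to -0.16, limma adjusted p 0.054 to 0.064) and with each array centred on its median (-0.12, limma adjusted p = 0.10).

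STMN3, a stathmin that destabilises microtubules, had 7.79, 7.92, 7.93 and 7.83 with DHT and 8.02, 8.09, 8.06 and 7.93 with vehicle. Its groups met at 7.93, and its log2 fold change was -0.16 ± 0.05 (limma adjusted p = 0.045). Its other probe set gave 0.22 and the mean of both 0.03. The call ended with quantile normalization (-0.06) and median centring (-0.09), and without DHT replicate 1, 2 or 4 or vehicle replicate 1, 2 or 3 (-0.17 to -0.13, limma adjusted p 0.051 to 0.12). It also ended with the adjustment over all probe sets (limma adjusted p = 0.078). BEX1, an adaptor of neurotrophin receptor signalling, and FOXA2 passed with both groups dim. BEX1 averaged 5.76 with DHT and 5.94 with vehicle (limma adjusted p = 0.0049), and FOXA2 averaged 5.78 with DHT and 5.54 with vehicle (limma adjusted p = 0.047). Without DHT replicate 2, 4 of the 31 genes passed lower, and without DHT replicate 2 or 3 or vehicle replicate 2, 3 or 4, 1 passed higher. The share of all genes without these arrays is not given here, so nothing particular to the 31 is read from these counts.

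**Figure D3:**
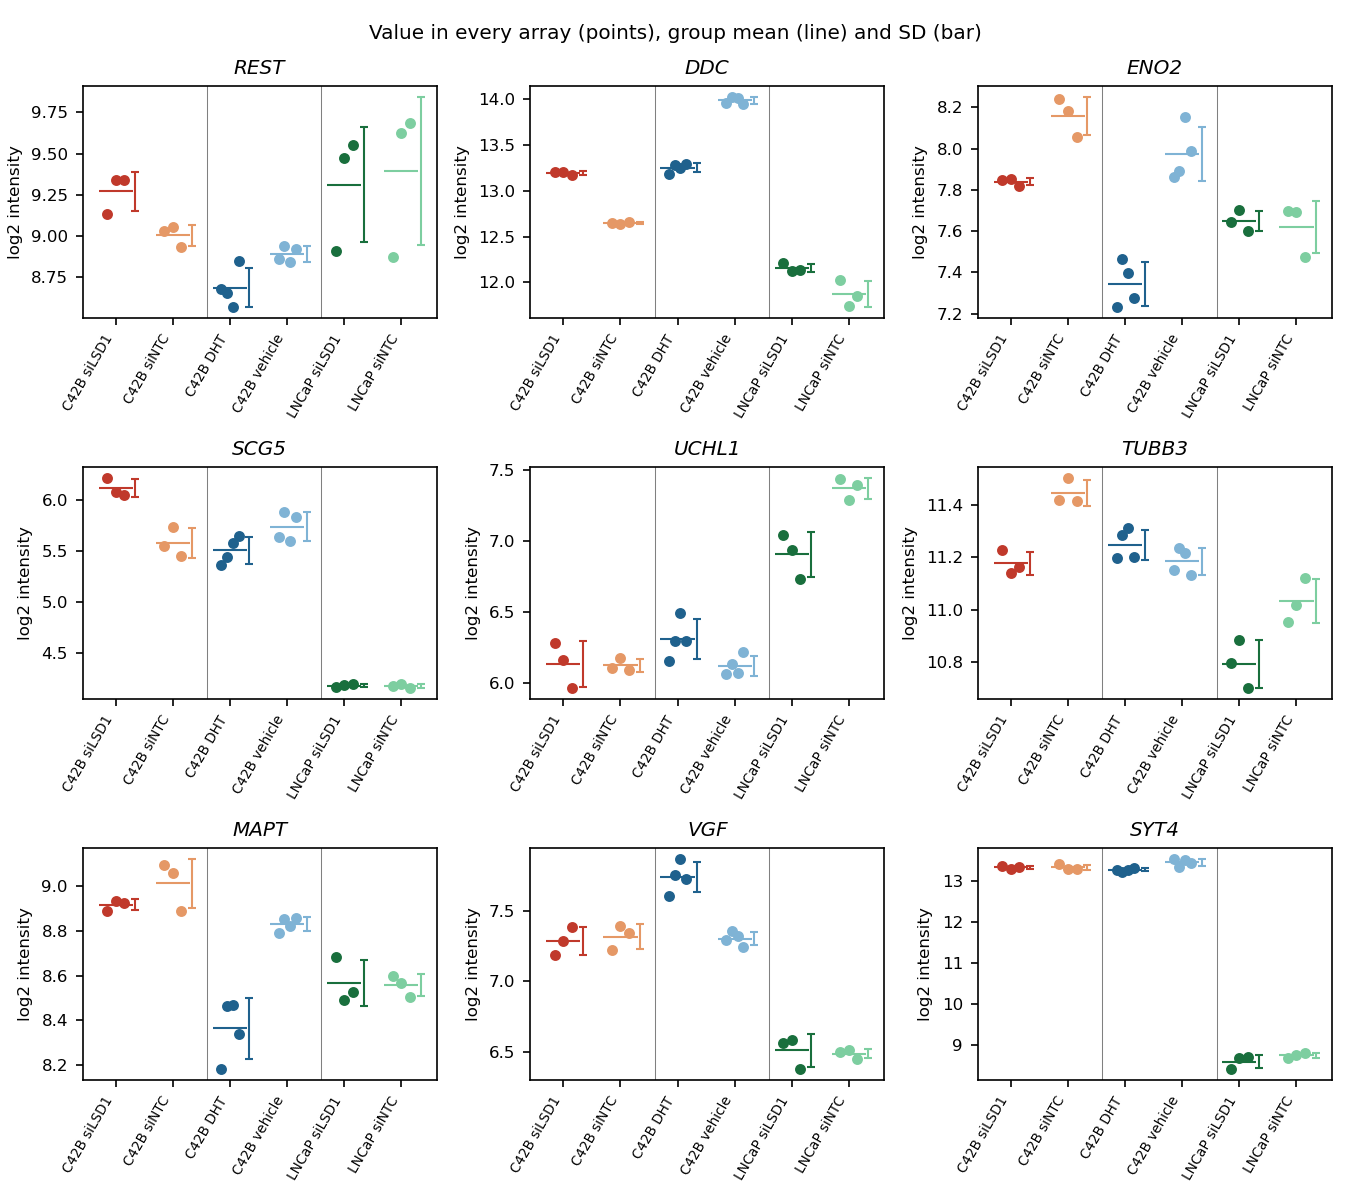
Log2 intensity (y axis) of REST, DDC, ENO2, SCG5, UCHL1, TUBB3, MAPT, VGF and SYT4 in every array (points) of the 6 groups (x axis), with group mean (line) and SD (bar). Grey lines part the 3 experiments, whose intensity distributions differ. DDC stands at 13.18 to 13.21 with siLSD1 and 12.64 to 12.66 with siNTC in C42B. REST replicate 1 lies low in both LNCaP groups (8.91 and 8.88).

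In LNCaP, 3 of the 31 genes passed with siLSD1 (9.68%), against 25.9% of all genes. Of the 31 genes, 13 were bright in at least 1 LNCaP group, so this share includes many dim genes. DDC was higher (1 of 31, 13.4% of all genes), and UCHL1 and TUBB3 were lower (2 of 31, 12.5% of all genes). The median log2 fold change of the 31 and of all genes was 0.01.

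UCHL1, a ubiquitin hydrolase abundant in neurons, had 7.04, 6.94 and 6.73 with siLSD1 and 7.43, 7.29 and 7.39 with siNTC in LNCaP. It fell by 0.47 ± 0.09 (-27.6%, limma adjusted p = 0.0050), without overlap. A dimmer UCHL1 probe set gave 0.07 (limma adjusted p = 0.63).

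DDC had 12.21, 12.12 and 12.14 with siLSD1 and 12.03, 11.74 and 11.86 with siNTC in LNCaP and was higher by 0.28 ± 0.08 (limma adjusted p = 0.033). TUBB3 had 10.79, 10.88 and 10.70 with siLSD1 and 10.95, 11.02 and 11.12 with siNTC and was lower (-0.24 ± 0.07, limma adjusted p = 0.042). Both thus passed in the same direction as in C42B, with groups that did not overlap in either line. The DDC call ended with the mean of its probe sets (0.19, limma adjusted p = 0.15) and without any 1 siLSD1 replicate or siNTC replicate 2 or 3 (0.22 to 0.30, limma adjusted p 0.072 to 0.11). The TUBB3 call ended without siLSD1 replicate 1 or 3 or siNTC replicate 2 or 3 (-0.25 to -0.19, limma adjusted p 0.089 to 0.15) and with a replicate block (limma adjusted p = 0.069), which left 1 of the 31 genes lower. It also ended with the adjustment over all probe sets. Without siNTC replicate 1, 3 of the 31 genes passed higher. The share of all genes in these alternative fits is not given here, so nothing particular to the 31 is read from these counts.

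The siLSD1 effect differed between the lines for 3 of the 31 genes, against 11.6% of all genes. SCG5 and UCHL1 passed with a more positive effect in C42B (2 of 31, 5.56% of all genes) and ENO2 with a more negative one (1 of 31, 6.07% of all genes). With each array centred on its median, 3 passed higher and 0 lower (limma), and the share of all genes under it is not given here.

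For SCG5 the fitted difference was 0.53 ± 0.10 (limma adjusted p = 0.0045), but its size is not measured. All 6 LNCaP arrays were dim (4.16 to 4.20), where an effect could not show, and the C42B effect counted from 6 was 0.11. For UCHL1 the effect was 0.01 in C42B, where the groups overlapped (6.29, 6.16 and 5.97 with siLSD1, 6.11, 6.18 and 6.09 with siNTC), and -0.47 in LNCaP, a difference of 0.48 ± 0.13 (limma adjusted p = 0.030). For ENO2 it was -0.32 in C42B and 0.03 in LNCaP (7.64, 7.70 and 7.60 with siLSD1, 7.70, 7.69 and 7.48 with siNTC), a difference of -0.35 ± 0.10 (limma adjusted p = 0.037). The ENO2 difference no longer passed without any 1 of the C42B siLSD1 or LNCaP siLSD1 replicates, C42B siNTC replicate 1 or 2 or LNCaP siNTC replicate 3 (-0.37 to -0.28, limma adjusted p 0.050 to 0.092). Nor did it pass with the adjustment over all probe sets (limma adjusted p = 0.064) or with median centring. The UCHL1 difference no longer passed without C42B siLSD1 replicate 1 or 2, C42B siNTC replicate 1 or 3, LNCaP siLSD1 replicate 2 or 3 or LNCaP siNTC replicate 3 (0.39 to 0.49, limma adjusted p 0.054 to 0.069). Without LNCaP siNTC replicate 1, 3 of the 31 genes passed with a more negative effect in C42B. The share of all genes without that array is not given here. For DDC the difference, 0.27 ± 0.09, did not pass (limma adjusted p = 0.090).

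**Figure D4:**
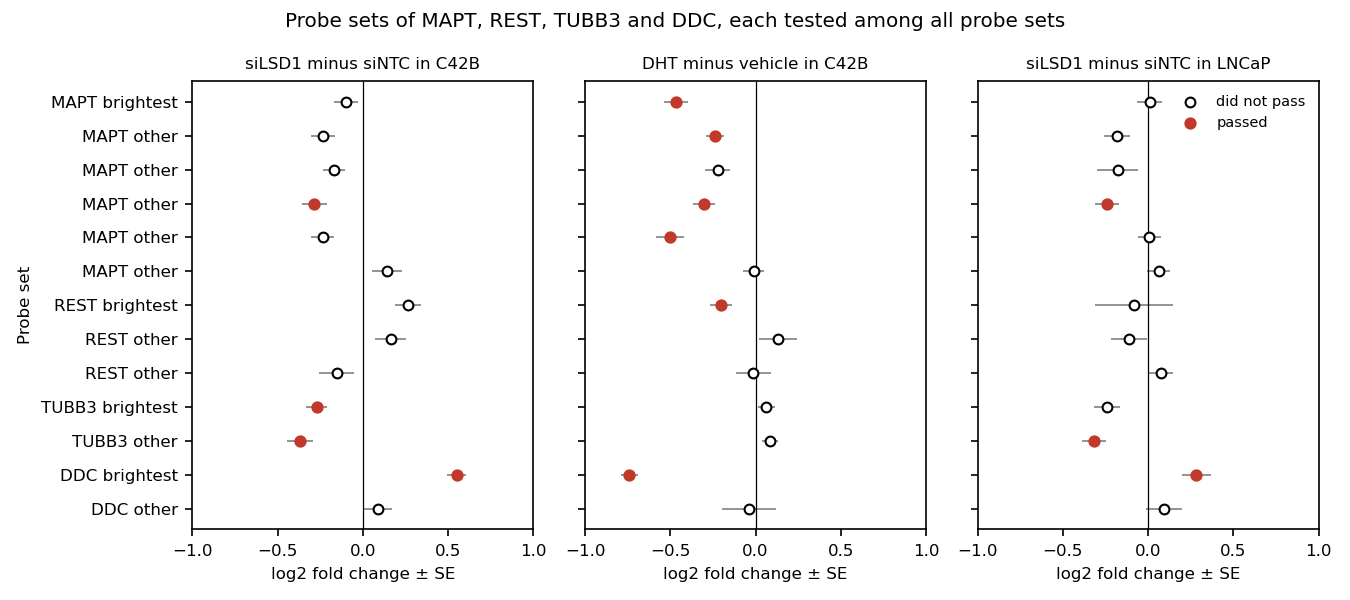
Log2 fold change ± SE (x axis) of every single-gene probe set of MAPT, REST, TUBB3 and DDC (y axis, brightest first within a gene) in the 3 comparisons. Points are filled where the probe set passed among all probe sets that are not controls. All 6 MAPT probe sets lie below 0 with DHT, the 2 TUBB3 probe sets lie below 0 with siLSD1 in both lines, and the 3 REST probe sets lie on both sides of 0 in each comparison.

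SYT4 had the widest gap between the lines among the 31 genes. It stood at 13.40, 13.30 and 13.29 in C42B siNTC cells and at 8.68, 8.75 and 8.82 in LNCaP siNTC cells. The gap of 4.58 on the log2 scale (23.8-fold) was reached or exceeded by 23 of the 19775 genes (0.116%), and it was 4.34 after quantile normalization over all 20 arrays, added after seeing the data. SYT4 did not pass with siLSD1 in C42B (13.35, 13.29 and 13.34, against the siNTC values above, 0.00 ± 0.05) or in LNCaP (8.42, 8.68 and 8.70, -0.15 ± 0.09).

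DPYSL3 stood at 8.15 in C42B siNTC cells and was dim in LNCaP siNTC cells (5.84), a gap of at least 2.15 counted from 6. BEX1 stood at 6.61 and 5.41 in these groups, a gap of at least 0.61, and was dim in vehicle-treated C42B cells (5.94). UCHL1, bright in both lines, stood lower in C42B siNTC cells (-1.24). SCG5 and ELAVL4 were dim in both siNTC groups and have no measured gap. The median gap over all genes was 0.28, and 1.66% of genes had a gap of at least 2 in either direction. These levels come from experiments whose intensity distributions differ and carry no test.

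The remaining bright genes passed in no comparison. SNAP25, a SNARE protein of vesicle fusion, had group means of 6.25 to 7.08, the stem cell factor SOX2 5.49 to 6.74, the neural POU factor POU3F2 5.11 to 6.19, the growth cone protein GAP43 5.35 to 6.15, and SRRM4, the splicing factor that makes the short neuronal form of REST, 4.73 to 6.14. SOX2 was the nearest to the threshold with siLSD1 in C42B (0.31 ± 0.11, limma adjusted p = 0.094), but its other probe sets gave -0.20, -0.01 and 0.07, so its direction depends on the probe set. SRRM4, dim in all 4 siRNA groups, gave -0.18 ± 0.09 in C42B and 0.20 ± 0.08 in LNCaP, and the difference between them did not pass (limma adjusted p = 0.074). Dimmer probe sets of some genes that passed in no comparison, and of DPYSL3, which passed in C42B, passed among all probe sets, each with both groups dim. With DHT they were those of POU3F2 (-0.62), SNAP25 (0.39) and SRRM4 (0.22), and with siLSD1 in LNCaP those of NCAM1 (0.27), GAP43 (-0.30) and DPYSL3 (-0.34).

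The proteins that work with REST were measured in 18 of 20 cases, and all 18 were bright in at least 1 group of each comparison. With siLSD1 in C42B, 1 passed higher and 4 lower, among them the siRNA target KDM1A (27.8% of the 18, against 18% of all genes). SIN3A, the scaffold of a histone deacetylase complex, fell by 0.38 ± 0.05 (limma adjusted p = 0.0033) and CTBP1, a corepressor bound by the CoREST complex, had -0.32 ± 0.05 (limma adjusted p = 0.0038). With DHT 3 passed higher and 7 lower (55.6%, against 32.7% of all genes), with CTBP1 at -1.06 ± 0.04, the histone methyltransferase EHMT2 at -0.37 ± 0.04 and HMG20B, a CoREST complex subunit, at 0.36 ± 0.04. With siLSD1 in LNCaP 1 passed higher and 5 lower (33.3%, against 25.9% of all genes), with KDM1A at -2.78, the deacetylase HDAC2 at -0.51 ± 0.07 and EHMT1, the partner of EHMT2, at -0.27 ± 0.07.

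Of 29 measured textbook REST targets outside the list, none passed higher and 1 lower with siLSD1 in C42B, 2 higher and none lower with DHT, and 1 higher and none lower with siLSD1 in LNCaP. These are 3.45%, 6.9% and 3.45% of the 29, against 18%, 32.7% and 25.9% of all genes. Genes bright in at least 1 group of the comparison numbered 13, 18 and 11 of the 29, so these shares include many dim genes. At an unadjusted p under 0.05 in limma the counts were 0 higher and 1 lower, 3 higher and 1 lower, and 2 higher and 0 lower. The median log2 fold change of the 29 was -0.01, 0.04 and -0.02 in the 3 comparisons. CPLX1, a complexin of vesicle release, passed lower in C42B with both groups dim (5.35 with siLSD1 and 5.96 with siNTC) and higher in LNCaP (0.26 ± 0.08, limma adjusted p = 0.042). With DHT the neurotrophin BDNF (0.30 ± 0.08, from a dim vehicle group) and the kinase scaffold MAPK8IP1 (0.19 ± 0.06, overlapping groups) passed higher. SYN1 and GRIA2, whose RE1 cores are printed above, passed in none, with group means of 6.08 to 6.98 for SYN1 and 3.51 to 4.43 for the dim GRIA2.

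Of 17 measured genes of dense-core vesicles and peptide processing 2 passed higher and none lower with siLSD1 in C42B, and 5 higher and none lower in LNCaP. These are 11.8% and 29.4% of the 17, against 18% and 25.9% of all genes. At an unadjusted p under 0.05 in limma 4 were higher and 0 lower in C42B, and 6 higher and 1 lower in LNCaP. The SNARE protein VAMP2 rose by 0.44 ± 0.06 in C42B and 0.88 ± 0.06 in LNCaP (limma adjusted p = 0.0038 and 4.0e-05), and the peptide-trimming enzyme CPE by 0.23 ± 0.06 and 0.63 ± 0.06. The amidating enzyme PAM (0.65 ± 0.05) and the vesicle GTPase RAB3A (0.63 ± 0.06) passed in LNCaP. With DHT 5 passed higher and 2 lower (41.2%, against 32.7% of all genes), led by CADPS2, a priming factor of dense-core vesicles (1.52 ± 0.06), the granule membrane protein PTPRN2 (1.00 ± 0.08) and the secretory GTPase RAB27A (0.87 ± 0.04).

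Of 19 measured neural and neuroendocrine transcription factors outside the list, 2 passed higher and 2 lower with siLSD1 in C42B, 1 higher and 7 lower with DHT, and 5 higher and 2 lower with siLSD1 in LNCaP. These are 21.1%, 42.1% and 36.8% of the 19, against 18%, 32.7% and 25.9% of all genes. In C42B with siLSD1, LHX2, a homeobox factor of the forebrain, fell by 0.48 ± 0.05 and HES6, an inhibitor of HES1, rose by 0.28 ± 0.06. With DHT the forebrain zinc finger factor ZIC2 fell by 0.86 ± 0.06, SOX11, a factor of immature neurons, by 0.49 ± 0.10 and MYT1, a neural zinc finger factor, by 0.46 ± 0.10. In LNCaP with siLSD1, SOX11 had 1.25 ± 0.10 (at least 1.04 when its dim control is counted from 6), ZIC2 0.61 ± 0.10 and ONECUT2 0.60 ± 0.10, all higher.

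Of 14 measured neuronal RNA-binding proteins 1 passed higher and 1 lower with siLSD1 in C42B, 1 higher and 3 lower with DHT, and 2 higher and 2 lower with siLSD1 in LNCaP. These are 14.3%, 28.6% and 28.6% of the 14, against 18%, 32.7% and 25.9% of all genes. PTBP2, the neuronal splicing repressor, rose by 1.66 ± 0.09 in C42B and 2.28 ± 0.11 in LNCaP with siLSD1, and its paralog PTBP1 had -0.53 ± 0.05 and -1.34 ± 0.07. With DHT the splicing regulators NOVA1 (-0.99 ± 0.04), PTBP2 (-0.60 ± 0.07) and RBFOX2 (-0.21 ± 0.04) passed lower. ELAVL2, a relative of ELAVL4, rose by 0.97 ± 0.19 with siLSD1 in LNCaP.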

How the data were processed

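Affymetrix arrays of 54675 probe sets were read from the authors' deposited value table. The deposited values are intensities on a linear scale (4.34 to 36333), and the submitters' processing notes name RMA and affy, with no version. The labels name 2 labelling kits without saying which arrays had which. RMA summarises each probe set after background correction and quantile normalization, so small changes can be compressed and array-wide shifts are removed.

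Here log2 was taken of each value. Of the probe sets, 62 are controls and 41091 name exactly 1 gene in the platform annotation, and 10523 of the 19775 genes had more than 1. Each comparison was fitted on its own arrays with limma 3.58.1 (lmFit, eBayes, two-sided, no covariates) in R 4.3.3, and the difference between lines over the 12 siRNA arrays. P-values were adjusted by Benjamini-Hochberg over all genes, and a gene passed under 0.05. Where single probe sets were tested, the adjustment ran over all probe sets that are not controls. No dim probe set was removed. Motifs, tables and figures used Python 3.11.15, pandas 2.3.3, numpy 2.4.6 and matplotlib 3.10.9. The fit was tested on simulated data.

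The genes and lists were chosen with earlier results of these data known, and no list was tested as a set. All 32 symbols are named, with values per array for REST and for those that passed with a bright group. From other lists, up to 3 passing bright genes with the largest change per comparison are named. Dimmer probe sets, SYN1, GRIA2, CPLX1 in C42B, SOX2's and SRRM4's unpassed values and the genes of the marker lists were singled out after their values were seen. Alternatives were the mean of a gene's probe sets, every probe set, bright genes only, quantile normalization, median centring, trend and robust eBayes, arrayWeights, a replicate block, and 1 array fewer at a time. Same-numbered arrays deviated together too little to count as pairs (r from -0.096 to 0.20 between their deviations). The number of arrays limits the precision.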

Additional observations from a re-analysis of the deposited data

Results flagged for a closer look

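The effect of siLSD1 differed between C42B and LNCaP, by the limma contrast over the 12 siRNA arrays, for 3 of the 31 genes and for genes of the other lists that were bright in 1 of the lines. Of all genes 11.6% passed in this contrast, against 9.68% of the 31. The shares were 16.7% of 18 REST corepressor partners, 23.5% of 17 vesicle genes and 21.1% of 19 transcription factors. They were 21.4% of 14 RNA-binding proteins and 3.45% of 29 textbook REST targets. The values are the effect in C42B minus the effect in LNCaP on the log2 scale. Among the 31 they were 0.53 for SCG5, 0.48 for UCHL1 and -0.35 for ENO2. SCG5 was dim in both LNCaP groups and in C42B siNTC cells, so its value is fitted below the limit and its C42B effect counted from 6 is 0.11. Among REST corepressor partners they were 0.43 for HDAC2, 0.38 for EHMT1 and 0.29 for CTBP2. Among vesicle genes they were -0.57 for PAM, -0.51 for RAB3A, -0.45 for VAMP2 and -0.41 for CPE. Among transcription factors they were -1.06 for SOX11, -0.65 for LHX2, -0.59 for ONECUT2 and -0.53 for ZIC2. Among RNA-binding proteins they were -1.02 for ELAVL2, 0.82 for PTBP1 and -0.62 for PTBP2. CPLX1, a textbook REST target, had -0.87 and was dim in both C42B groups.

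Beside these differences, the medium was CSS for C42B and FBS for LNCaP, and KDM1A was lower by 2.40 in C42B and 2.78 in LNCaP. The labels give a transfection of 6 h for C42B, and 50 nM siRNA and 2 pooled wells for LNCaP. Line, medium, transfection, pooling of wells and normalization cannot be told apart. No array of the 4-array groups lay far from the others of its group for any of the 31 genes, over 62 groups checked.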

How the results depend on the processing

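ENO2 with siLSD1 in C42B and ENO2 and VGF with DHT passed in the same direction under every alternative run. SCG5 with siLSD1 in C42B and its difference between the lines did so too. SCG5 was bright in C42B siLSD1 cells only and entered the fit of bright genes through that group alone. The size of its change is therefore not measured. DDC in both C42B comparisons and MAPT with DHT failed only in other probe sets of the gene, and UCHL1 in LNCaP turned to 0.067 in its other one. With siLSD1 in C42B, leaving out 1 array left 2 to 3 genes higher, 1 to 4 lower and a median of -0.045 to -0.0011. With DHT these ranges were 1 to 2, 4 to 7 and 0.016 to 0.074. With siLSD1 in LNCaP they were 0 to 3, 1 to 2 and -0.0018 to 0.066, and for the difference 1 to 3, 0 to 3 and -0.056 to 0.0083.

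Other settings moved counts as follows. With DHT, 1 gene passed higher with every probe set, with quantile normalization and with trend and robust eBayes, and 5 higher and 4 lower with median centring, where the median became 0.12, against -0.0037 over bright genes. In LNCaP 0 passed higher with the mean of probe sets (limma), 1 passed lower with every probe set and with the replicate block, and the median became -0.025 with median centring. For the difference 1 passed higher with the mean of probe sets, and 0 passed lower with every probe set and with median centring (limma), and 3 with arrayWeights. The directions that turned were STMN3 with DHT (0.030 with the mean of probe sets, 0.22 in its other probe set), DPYSL3 in C42B (0.00998 in 1 probe set), and REST: -0.15 in C42B, 0.13 with DHT, 0.073 in LNCaP and -0.23 for the difference in 1 other probe set each, and in LNCaP -0.34 to 0.12 when 1 array was left out (above 0 without siLSD1 replicate 1 and without siNTC replicate 2 or 3). The cause was not tested. The replicate block ended the calls of REST in C42B (0.27, limma adjusted p = 0.068) and TUBB3 in LNCaP (-0.24, limma adjusted p = 0.069) and changed no other call among the named genes of the list. Where a gene is dim, signal over background limits what its fold change means.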
